A study of Mus musculus with 2 samples.

Results

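The 10 genes of the NF-kB subunits and I-kB proteins were Rela, Relb, Rel, Nfkb1, Nfkb2, Nfkbia, Nfkbib, Nfkbie, Nfkbiz and Bcl3, out of 27337 genes on the array. They were chosen by name: every non-control spot whose gene name in the scanner files was one of the 10 was taken, which gave 32 spots of 14 probes. Of the 10 genes, 9 were well above background on both arrays and 1, Rel, was on neither. The cells, named leukemia-initiating cells (LICs) for their ability to restart the disease, came from bone marrow of female mice with acute myeloid leukaemia (AML). In both genotypes they expressed the MLL-AF9 oncogene with YFP, and they were sorted as Mac-1+ c-Kit+. They were Jam3-null on the first array and WT on the second. Each array held RNA from 3 mice, and how Jam3 was deleted, the age of the mice and the shares of the 3 mice in the RNA are not given in the sources used here.

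NF-kB is a family of dimeric transcription factors assembled from Rela, Relb, Rel and the products of Nfkb1 and Nfkb2. The I-kB proteins Nfkbia, Nfkbib and Nfkbie hold the dimers in the cytoplasm until a receptor signal activates the IKK kinases, which mark the I-kB for destruction. Nfkbiz and Bcl3 are I-kB proteins that act in the nucleus and modify which targets the dimers switch on. In myeloid cells the pathway is known for driving inflammatory genes, and several of its own inhibitors and subunits are among its targets.

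Each genotype had 1 array, so the differences lack a replicate check and could not be tested, and it is this number that limits their precision. Signals are the processed intensities of the scanner software. They were scaled to the 75th percentile of their array (667.8 for Jam3-null and 713.9 for WT), and a difference is the log2 value in Jam3-null minus that in WT cells; printed signals are unscaled. The SD beside a difference is the measurement error from the software's error model and leaves out the spread between mice. A gene was called at 2-fold, and among the 14361 genes measured in both genotypes 10.3% passed 2-fold upward in Jam3-null cells and 8.59% downward, with a median difference of -0.07.

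The genotypes are those of the labels: both Jam3 probes were below background on both arrays (signals 28.1 and 5.40 in Jam3-null, 5.09 and 3.23 in WT), so this gene did not check them. Of the genes used in the sort, Itgam, the Mac-1 chain, differed by 3.71 and Kit by 0.09. Neutrophil markers moved with the results below: 17 of 17 measured were at least 2-fold higher on the Jam3-null array, and their summed signal was 1057167 against 179326. Of 13 measured monocyte and macrophage markers 6 were at least 2-fold higher and 0 lower, with summed signals of 384199 and 265504. By any amount, 9 of the 13 were higher and the rest lower. Lyz2 gave 200766 against 20961 of these sums, while Ly6c2, the other bright marker, was lower at 169410 against 237295. Mast cell and basophil markers (4 of 4 measured) and dendritic cell markers (4 of 8) were at least 2-fold lower, with summed signals of 5250 against 30258 and 5074 against 23212. Endothelial and stromal markers were at least 2-fold lower in 3 of 4 measured (700.1 against 2845). Summed signals were 7958 against 13458 for B cell markers (3 measured, 1 at least 2-fold lower), and 15527 against 4845 for T and NK cell markers (5 measured, 1 higher and 1 lower), of which Nkg7, the higher gene, gave 15160 against 4526. They were 2040 against 1280 for erythroid markers (4 measured, 1 higher) and 910.6 against 419.1 for megakaryocyte markers (2 measured, Gp9 and Vwf, both higher). Markers seen on 1 array only went both ways: Alas2, Cd3d, Fcgr1 and Klrb1c were at least 9.40-fold, 4.93-fold, 3.93-fold and 3.68-fold higher in Jam3-null cells, and Itga2b, Prss34 and Pf4 at least 3.75-fold, 2.85-fold and 2.24-fold lower. After normexp background correction, which here added an offset of 50 to each signal, only Alas2 kept a bound past 2-fold, at 3.18-fold. Those of Cd3d, Fcgr1 and Klrb1c were then 1.94-fold, 1.63-fold and 1.67-fold, and those of Itga2b, Prss34 and Pf4 1.85-fold, 1.36-fold and 1.35-fold. The defining markers Pax5, Cd79a, Cd8a, Cd2, Ncr1, Gp1ba, Ppbp, Cdh5, Kdr, Col1a1, Pdgfra, Ms4a2, Clec9a, Siglech, Mrc1 and Mertk were at background on both arrays. The part of these shifts in the differences below was not tested, and in bulk RNA fewer cells of a type and less RNA per cell cannot be told apart.

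Of the 9 measured members, 5 (Bcl3, Nfkbiz, Relb, Nfkb2 and Nfkbia) passed 2-fold upward in Jam3-null cells, where 10.3% of all measured genes did, and 0 downward, where 8.59% did. The other 4, Rela, Nfkb1, Nfkbib and Nfkbie, were within 2-fold. The median difference of the 9 was 1.10, set by Nfkbia, against -0.07 over all measured genes. By role, both nuclear I-kB genes passed 2-fold, as did 1 of 3 classical I-kB genes, 1 of 2 precursor genes and 1 of 2 measured subunits with a transactivation domain.

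**Figure D1:**
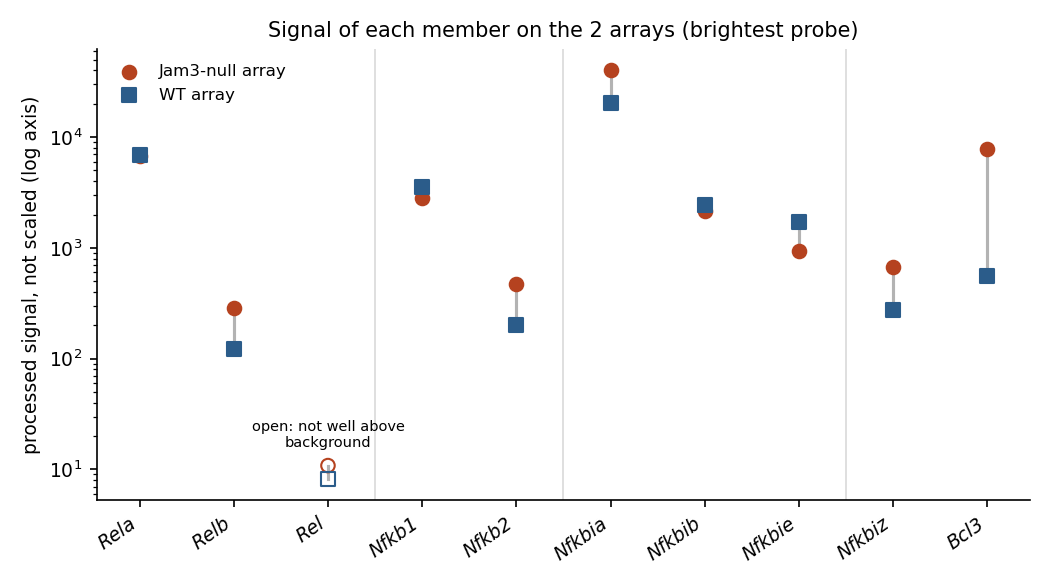
Processed signal of the brightest probe of each of the 10 members on the Jam3-null array (circles) and the WT array (squares), on a log axis and before scaling; open symbols mark Rel, which was not well above background. Heights compare the 2 arrays within a gene only, and the widest gap is that of Bcl3, 7881 against 551.5.

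Rela encodes p65, the subunit that activates transcription in the most common NF-kB dimer. Its brightest probe (chr19:5647632-5647691, mm9, plus strand) had a signal of 6807 in Jam3-null and 6850 in WT cells. The arrays lay together at this probe, with a difference of 0.09 (SD 0.20). The sign was not stable: the difference was -0.01 with spike-in scaling and 0.25 with cyclic loess.

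A second Rela probe (chr19:5647136-5647195) was printed in 10 spots per array. Its signals ran from 360.5 through a median of 371.1 to 386.2 on the Jam3-null array, and from 280.9 through a median of 425.2 to 451.6 on the WT array. The groups of spots overlapped only through 1 low WT spot, which the scanner software had not marked as an outlier; the other WT spots started at 416.3. The mean difference was -0.05 (SD over 10 spot positions 0.18), and -0.10 (SD 0.05) without that spot. Repeat spots share 1 labelled RNA, so this spread is technical, and both Rela probes lay far inside 2-fold.

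Relb, a subunit that pairs mainly with the Nfkb2 product in the alternative pathway, had a signal of 287.6 in Jam3-null and 121.3 in WT cells (chr7:20191722-20191781, minus strand). It was 2.53-fold higher, a log2 difference of 1.34 (SD 0.21). After normexp background correction the difference was 0.96, which is 1.94-fold and short of the call. Its partner Nfkb2, which encodes the p100 precursor of p52, was at 474.8 against 203.0 (chr19:46386146-46386285, plus strand). The Nfkb2 difference was 1.32 (SD 0.21), and 1.06 after normexp correction. Both genes of the alternative dimer were thus higher by amounts closer than their SD, and each rests on 1 probe.

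Rel, which encodes c-Rel, a subunit best known from lymphocytes, had signals of 10.8 and 8.17, below background on both arrays, and no fold is given. The array file maps only 15 bases of its probe to the genome (chr11:23641729-23641743), and the file gives no place for the rest.

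Nfkb1 encodes p105, the precursor of p50, and was read by 4 probes that went both ways. The brightest (chr3:135247710-135247771, minus strand) was printed in 10 spots, with signals from 2654 through a median of 2790 to 2891 in Jam3-null and from 3384 through 3496 to 3711 in WT cells. The 2 groups of spots did not overlap, and the probe was lower at 10 of 10 positions, by 0.24 in log2 (a difference of -0.24, SD over positions 0.02, error-model SD 0.20). The other probes, at chr3:135275144-135275203, chr3:135274175-135274234 and chr3:135281195-135281254, lie nearer the 5′ end of this minus-strand gene and had differences of 0.35, 0.34 and 0.13. With the mean of all 4 probes the gene stood at 0.15 in place of -0.24, so the data give no common direction for Nfkb1, and every probe was within 2-fold.

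**Figure D2:**
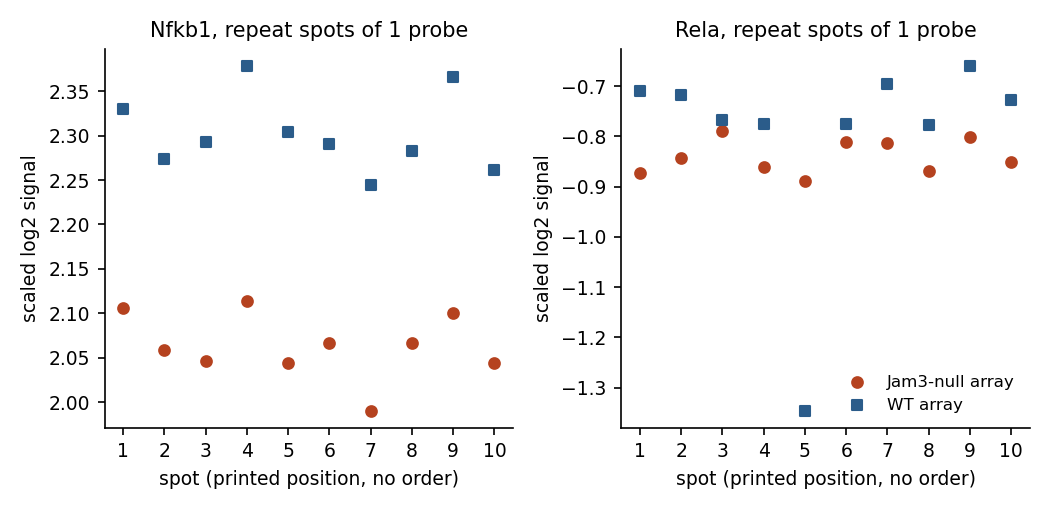
Scaled log2 signal of the 10 repeat spots of the Nfkb1 probe (left) and of the second Rela probe (right) on the Jam3-null array (circles) and the WT array (squares), by printed position. The Nfkb1 spots of the arrays are separate at every position, and 1 WT spot of Rela falls below all the others at -1.35.

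Nfkbia encodes I-kB alpha, the classical inhibitor that NF-kB itself induces and that ends a response. Its signal was 40602 in Jam3-null and 20254 in WT cells, a 2.14-fold higher value after scaling (1.10, SD 0.20). The probe maps across 496 bases (chr12:56590945-56591440, minus strand), more than its 60 bases. It passed 2-fold under each alternative tried, most narrowly with spike-in scaling and by the most with cyclic loess (1.33). Nfkbib, which encodes I-kB beta, was at 2144 against 2444, a difference of -0.09 (SD 0.20), and turned to 0.03 with cyclic loess.

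Nfkbie, which encodes I-kB epsilon, was the member that leaned most to the WT side. Its signal was 936.6 in Jam3-null and 1723 in WT cells (chr17:45700000-45700059, plus strand), 1.72-fold lower (-0.78, SD 0.20). Nfkbie was lower under each alternative tried (from -0.88 to -0.69), always short of 2-fold, and 13.5% of measured genes had a lower difference. The classical inhibitors thus split, with Nfkbia higher, Nfkbib level within the measurement error and Nfkbie lower.

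Bcl3, a nuclear I-kB that binds p50 and p52 homodimers and is also a proto-oncogene, had the largest difference among the members. Its signal was 7881 in Jam3-null and 551.5 in WT cells (chr7:20393862-20393921, minus strand), 15.3-fold higher (3.93, SD 0.20). It ranked 96 of 14361 measured genes from the highest, and its fold ran from 13.6 after normexp correction to 16.6 with cyclic loess. Nfkbiz, the other nuclear I-kB, which is induced by Toll-like and interleukin-1 receptors and is needed for a second wave of targets such as Lcn2, was at 673.1 against 272.7 (chr16:55812091-55812150, minus strand). Nfkbiz was 2.64-fold higher (1.40, SD 0.20), and 6.11% of measured genes had a higher difference. Bcl3 alone among the members passed 3-fold, a threshold that 4.94% of measured genes passed upward.

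**Figure D3:**
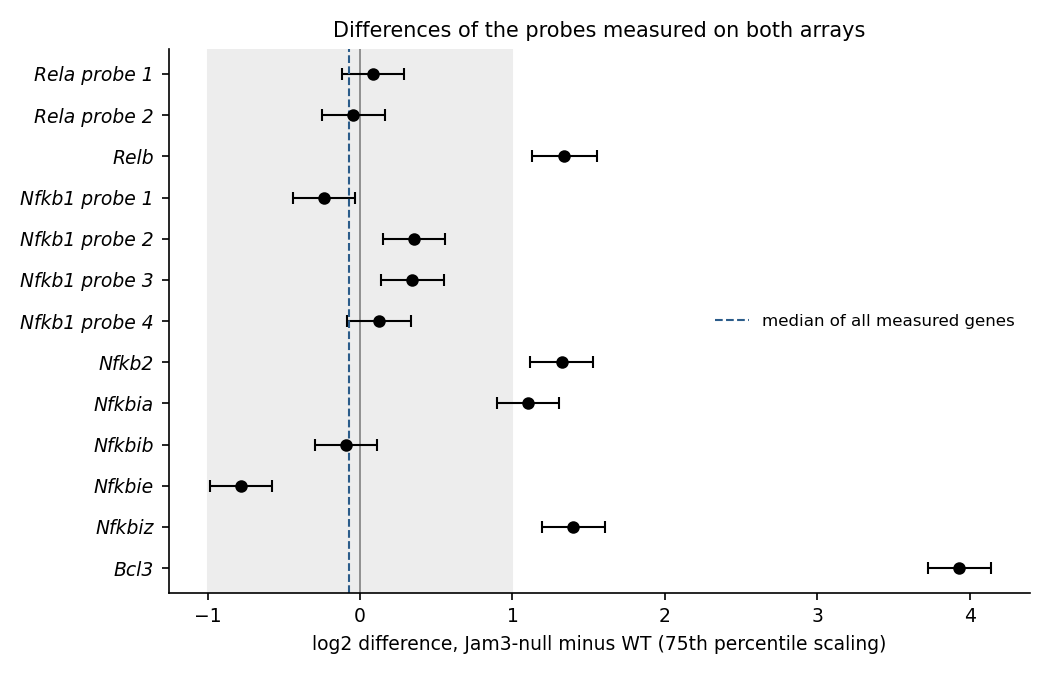
Log2 difference (Jam3-null minus WT) of the 13 member probes measured on both arrays; bars are 1 error-model SD, the shaded band is the range within 2-fold and the dashed line the median of all measured genes, -0.07. Relb, Nfkb2, Nfkbia, Nfkbiz and Bcl3 lie above the band, Nfkbie inside it at -0.78, and the Nfkb1 probes on both sides of 0.

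Because several NF-kB genes are known targets of the pathway and 5 were higher here, promoter windows were searched for the kB consensus, the 10-base element bound by NF-kB dimers (3 G, a purine, 2 free bases, 2 pyrimidines and 2 C, on either strand). RefSeq windows from 250 bases before to 50 after a start (GRCm38.p6) were at hand for 7 members. Relb and Nfkbiz, which were higher, and Nfkb1 had no window and were not searched. Of the 7, Bcl3, Nfkb2, Nfkbia, Nfkbie and Rel had at least 1 match, and Rela and Nfkbib had 0. Counted by window, 7 of their 9 windows had a match, where 8.46% of all 32851 windows did. Windows are not separate units: 3 of the 7 belong to Nfkb2, and 2 of those overlap and share 1 match. Counted by gene, 5 of the 7 members had a match, and no share over all genes was computed. A match is a run of letters and no measure of binding. The windows of 3 members that were higher and of Nfkbie, which was lower, are shown 5′ to 3′ on the gene's strand, from 250 bases before to 30 after the start, with matches in capitals:
Bcl3: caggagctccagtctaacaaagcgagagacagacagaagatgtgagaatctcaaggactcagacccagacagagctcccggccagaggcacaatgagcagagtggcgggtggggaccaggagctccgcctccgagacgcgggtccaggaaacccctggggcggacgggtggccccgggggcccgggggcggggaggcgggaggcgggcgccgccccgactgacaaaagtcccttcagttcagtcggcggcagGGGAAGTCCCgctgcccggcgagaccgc
Nfkb2: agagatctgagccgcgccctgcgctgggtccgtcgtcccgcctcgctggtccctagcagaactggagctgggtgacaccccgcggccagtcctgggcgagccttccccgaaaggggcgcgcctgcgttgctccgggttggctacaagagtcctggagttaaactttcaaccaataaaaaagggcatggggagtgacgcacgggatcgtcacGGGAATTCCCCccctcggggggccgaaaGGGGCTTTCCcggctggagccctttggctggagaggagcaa
Nfkbia: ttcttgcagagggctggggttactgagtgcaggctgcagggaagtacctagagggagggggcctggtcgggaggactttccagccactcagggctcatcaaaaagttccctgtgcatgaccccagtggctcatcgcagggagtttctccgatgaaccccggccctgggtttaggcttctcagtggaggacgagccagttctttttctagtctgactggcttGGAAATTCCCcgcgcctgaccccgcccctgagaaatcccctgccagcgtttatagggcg
Nfkbie: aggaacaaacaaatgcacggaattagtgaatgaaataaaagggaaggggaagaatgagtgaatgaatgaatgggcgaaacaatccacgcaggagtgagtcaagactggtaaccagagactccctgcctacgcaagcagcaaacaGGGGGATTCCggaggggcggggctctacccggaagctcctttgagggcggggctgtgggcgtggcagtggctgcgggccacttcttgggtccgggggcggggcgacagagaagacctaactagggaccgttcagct
These windows are chr7:19822726-19823005 (minus strand) for Bcl3, chr19:46304487-46304766 (plus) for Nfkb2, chr12:55492618-55492897 (minus) for Nfkbia and chr17:45555450-45555729 (plus) for Nfkbie. In Bcl3 the match lies just after the start, from base 3 to base 12, and reads as a match on both strands. The Nfkb2 window, the first of 3 starts in the table, holds 3 matches, of which 2 overlap at bases -39 to -29 and the last lies at -11 to -2. In Nfkbia the match spans bases -29 to -20 and in Nfkbie -106 to -97. A match was thus present in Bcl3, Nfkb2 and Nfkbia, the 3 searched members past 2-fold upward. Nfkbie, lower but within 2-fold, and Rel, whose transcript was not measured, also had a match. Rela and Nfkbib, within 2-fold, had 0. A tie between matches and differences was not tested.

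The genes around the members were grouped by their place in the pathway. The shares to set beside each count are 10.3% of all measured genes at least 2-fold higher and 8.59% lower. Receptors that signal to NF-kB were mostly higher: of 17 measured, 10 were at least 2-fold higher and 1 lower, with a median of 1.18. Tlr4, the receptor for bacterial lipopolysaccharide, had signals of 319.3 and 25.0 and a difference of 3.83, 2.19 after normexp correction, which pulls dim genes towards 0. Of the 2 Tlr4 probes, 1 was measured on both arrays. Tlr7, a sensor of RNA, was at 355.0 against 43.3 (3.13, and 2.16 after normexp). Cd14, the co-receptor of Tlr4 and also a monocyte marker, was at 4176 against 555.1 (3.01). In contrast, Il1r1, the signalling receptor of interleukin-1, was at 33.6 in Jam3-null and 280.6 in WT cells, a difference of -2.96 (-1.80 after normexp). Tlr5 passed background in WT cells only, with signals of 23.1 in Jam3-null and 21.0 in WT cells, and Cd40 and Tlr3 in neither. The dimmest signal that passed background was higher on the Jam3-null array, at a scaled log2 of -4.69 against -5.53. The status of Tlr5 therefore gives no direction for it. Without Cd14, 9 of 16 measured receptors were at least 2-fold higher.

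Of the adaptors that carry the receptor signal, 5 of 19 measured were at least 2-fold higher and 1 lower, with a median of 0.35. The 5 higher genes were Irak2 (1.77), Traf5 (565.7 against 213.8), Ticam1 (1.35), Myd88 (1.32) and Irak4 (1.30), the last pair named after their values were seen. Myd88, the adaptor of most Toll-like receptors, had a signal of 5456 against 2333. Ripk2 passed background in WT cells only (27.7 against 40.9).

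The kinases and the I-kB degradation machinery stood near the median of all genes. Of 17 measured, 2 were at least 2-fold higher, near the 10.3% of all measured genes, and 0 lower. The median was 0.03, or -0.07 with spike-in scaling. The IKK genes Chuk, Ikbkb and Ikbkg differed by -0.07, -0.16 and -0.12, each less than the error-model SD of 0.20 or 0.21, and the probes of Chuk and of Ikbkg went both ways. Map3k14, the kinase NIK that starts the alternative pathway, was at 1007 against 743.1 (0.53). The 2 higher genes were Map3k8, the kinase TPL2 that p105 holds, at 143.4 against 24.6 (2.64, and 1.25 after normexp), and the IKK-related kinase gene Ikbke at 404.9 against 77.2 (2.49, and 1.82 after normexp). Rbck1, a subunit of the linear ubiquitin ligase, leaned to the WT side at 5077 against 9409 (-0.79).

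Of 14 measured negative regulators, 2 were at least 2-fold higher, near the 10.3% of all measured genes, and 0 lower. The median was 0.50. Irak3, a kinase homologue that damps Toll-like receptor signals, was at 1914 against 720.4 (1.51, with 3 of 3 probes higher), and Pdlim2, which promotes the destruction of p65, at 5024 against 2526 (1.09). The RNase gene Zc3h12a (0.98, and 0.62 after normexp) and Tank (0.86, and 0.88 after normexp) were short of 2-fold. Tnfaip3, which encodes the deubiquitinase A20 and is a classical NF-kB target, was at 842.4 against 736.6, a difference of 0.29 (SD 0.20). Nfkbid, a further nuclear I-kB gene, was at 720.0 against 539.2 (0.51), so of the 3 nuclear I-kB genes measured Bcl3 and Nfkbiz passed 2-fold and Nfkbid did not. Tnip3 passed background in WT cells only (5.49 against 40.7).

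Inducible target genes had a median of 1.21, with 12 of 20 measured at least 2-fold higher and 0 lower. By any amount, 16 of the 20 were higher in Jam3-null cells and the rest lower, down to -0.62. The 4 with the widest gaps were the chemokine gene Ccl2 at 824.7 against 31.8 (4.79, and 3.28 after normexp), the adhesion gene Vcam1 at 3142 against 126.9 (4.73, and 4.11 after normexp), Lcn2, an iron-binding protein of neutrophil granules, at 26285 against 1428 (4.30), and the acute phase gene Saa3 at 1049 against 95.1 (3.56, and 2.79 after normexp). Of the 3 Vcam1 probes, 1 was measured on both arrays. Lcn2 is also a neutrophil marker, and without it 11 of 19 were at least 2-fold higher. Another 3 targets passed background in Jam3-null cells only: the cytokine gene Il1b (264.0 against 12.7), Cxcl1 (32.8 against 13.5) and Plau (31.4 against 6.09). Their bounds use the dimmest WT signal that passed background, and they were at least 18.3-fold higher for Il1b, 2.27-fold for Cxcl1 and 2.18-fold for Plau. Il1a (14.65 against 24.03) and Ptgs2 (16.5 against 26.5) passed background in WT cells only, and no bound in that direction could be set. After normexp correction the bound of Il1b was 2.14 in log2, and those of Cxcl1 and Plau were 0.51 and 0.56, short of 2-fold. Il6, Il12b, Csf2, Nos2 and Cd83 were not well above background on either array.

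**Figure D4:**
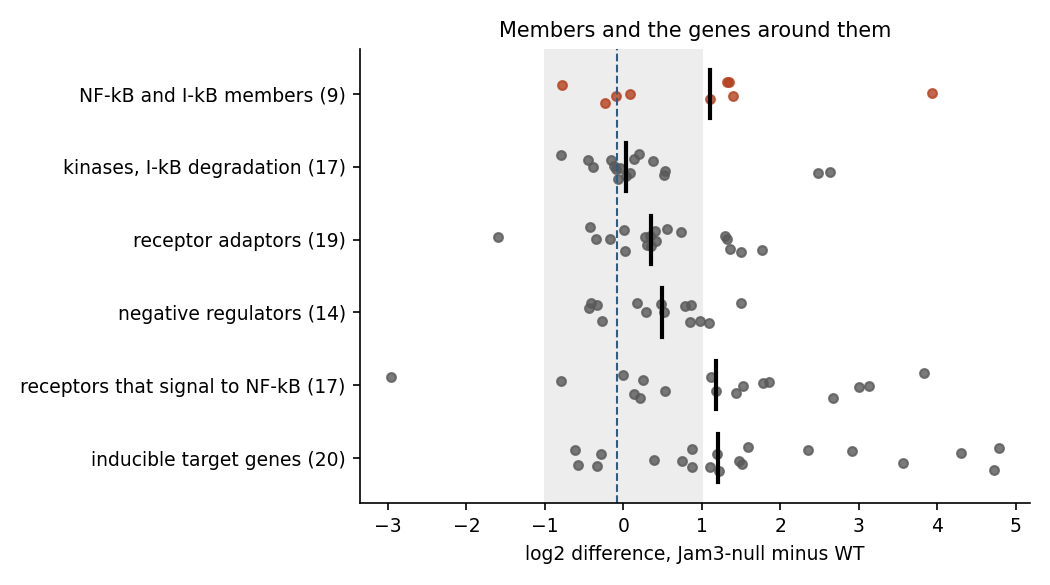
Log2 difference (Jam3-null minus WT) of the 9 measured members and of the measured genes of 5 pathway lists, 1 point per gene; vertical bars are medians, the shaded band is the range within 2-fold and the dashed line the median of all genes. The median is 0.03 for the kinases and I-kB degradation genes, and 1.18 and 1.21 for receptors and inducible targets.

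The 12 alternatives of processing and scaling were tried on each measured member. Bcl3, Nfkbiz, Nfkb2 and Nfkbia kept their sign and stayed past 2-fold wherever they were measured, and Relb did so in 10 of 11. Each of these 5 genes has 1 probe, measured on both arrays, with 0 flagged spots. Lifting the background filter, using bounds, averaging probes, keeping flagged spots and keeping only brighter genes therefore could not change their values. Relb, Nfkb2 and Nfkbiz are dimmer than the median measured gene and drop out when only brighter genes are kept, so 2 of 6 members then passed 2-fold upward, where 7.26% of the 7180 brighter genes did. At 1.5-fold, 5 members were higher and 1, Nfkbie, lower, where 18.4% and 20.3% of all measured genes were. At 3-fold, 1 was higher and 0 lower, where 4.94% and 2.93% were.

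**Figure D5:**
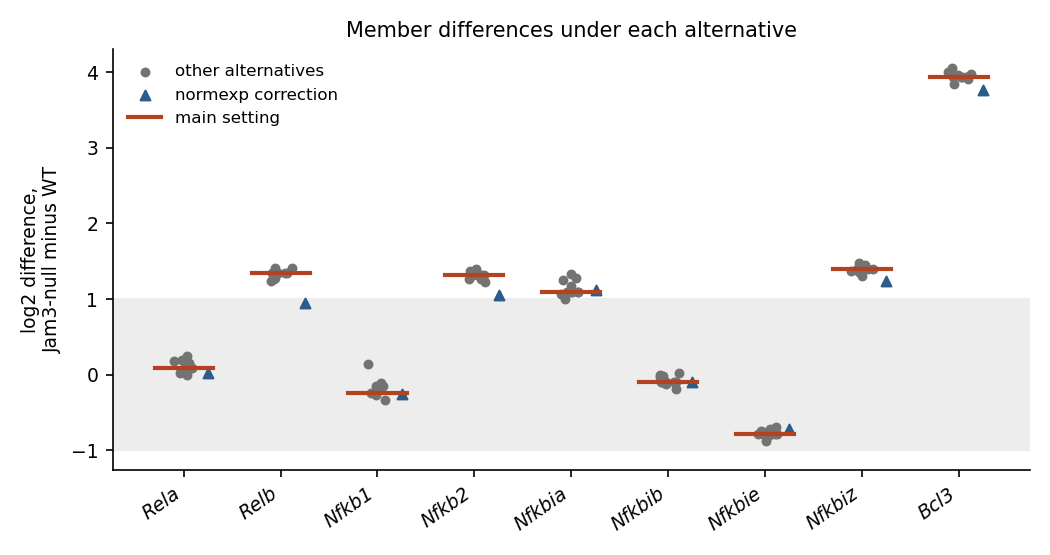
Log2 difference (Jam3-null minus WT) of each measured member in the main setting (line), after normexp background correction (triangle) and under the other alternatives (points); the shaded band is the range within 2-fold. The triangle of Relb, at 0.96, is the value of a called member that falls inside the band.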

How the data were processed

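Total RNA was labelled with Cy3 and hybridised to 2 Agilent arrays, 1 per genotype. The spot intensity values come, per the file headers, from Agilent Feature Extraction 10.7.3.1 run by the authors (the submitters' processing notes give 10.7): background-subtracted and detrended within each array, not scaled between arrays. The deposited value table holds log2 values whose sorted columns differed by at most 0.00038; no source used here names their normalization, and they served as an alternative. From the intensities, outlier spots were left out (0 among the members), log2 signals were scaled to the array's 75th percentile, spots of a probe were averaged, and a gene took its brightest probe. Names came by accession from a RefSeq table (GRCm38.p6) for 27668 of 41174 probes. Probe coordinates are on mm9, as in the files.

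The 10 members and the lists (5 of pathway genes, 9 of cell markers and 1 of sort and leukaemia genes, where Hoxa9 was at 0.73 and Meis1 at 0.81) were chosen with earlier results of these data known. Named genes were the members, the 4 with the largest absolute difference of each pathway list, those with a bound of at least 2-fold, and Nfkbid, Tnfaip3, Chuk, Ikbkb, Ikbkg and Map3k14. Of the genes this rule names, 1 is not reported here. Ly6g, Hbb-b1 and Card9 were not matched to a probe. The gene step was tested on simulated data. R 4.3.3, limma 3.58.1, Python 3.11.15, numpy 2.4.6 and pandas 2.3.3 were used.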

Additional observations from a re-analysis of the deposited data

How the results depend on the processing

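The median difference of the members was 1.33 with cyclic loess and 0.80 with no filter on background, where Rel joins them. It was -0.0026 over the brighter genes only, where 2 members were at least 2-fold higher, because Relb, Nfkb2 and Nfkbiz leave by construction. At a 3-fold threshold 1 member was higher, and at 1.5-fold 1 was lower, Nfkbie, where 20.3% of measured genes were. The count of members at least 2-fold higher was 4 or 5 under the other alternatives. The list of negative regulators had a median of 0.79 over the brighter genes only, and that of inducible targets 1.0003 with no filter. Cyclic loess moved the median of all genes by 0.13 and spike-in scaling by -0.10. Normexp correction, with its offset of 50, shrank the folds of dim genes, and the part of the offset in this was not tested. It divided the fold of Relb by 1.31 and that of Nfkb2 by 1.20. Among named pathway genes it divided those of Tlr4, Ccl2, Map3k8 and Il1r1 by 3.12, 2.86, 2.62 and 2.25. The bound of Il1b was divided by 4.15. No paired analysis was possible because each genotype has 1 array.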
